A study of Mus musculus with 15 samples.

Results

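Sprr1a, Sprr1b, Serpinb12 and Tmprss11b are 4 of the 34259 genes in the count table of this RNA-seq study of mouse glioma cells. They are a cornified envelope pair, a serpin and a serine protease, and they were selected on their measured levels, which were highest in the cells that received PBS in place of a hydrogel. Their excess in PBS is therefore a description here and carries no test. The 6 comparisons among the other 4 groups do not use PBS, and the members were tested there.

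Squamous epithelia such as epidermis, oesophagus and forestomach end their differentiation by building a cornified envelope, a protein layer cross-linked under the plasma membrane by transglutaminases. Small proline-rich proteins, encoded by the Sprr genes of the epidermal differentiation complex, are cross-linking substrates of that envelope, and Sprr1a is also known as a gene induced in injured neurons. Clade B serpins are intracellular protease inhibitors, of which Serpinb12 is expressed in several epithelia, and Tmprss11b belongs to the HAT/DESC group of type II transmembrane serine proteases found on squamous epithelia. None of these genes is a usual marker of brain or of glioma.

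All 15 libraries came from GL261, a mouse glioma cell line of wild-type genotype, collected on day 6 in 5 groups of 3, and all carry the same batch label. In 4 groups the cells were labelled Hoechst-CD133+ and were kept in medium with a mix of cytokines, the cocktail. The PBS group had no hydrogel. In the 3 hydrogel groups the cells were placed in a chiral gel, labelled D-gel or L-gel, and the gel carried a load labelled GSNP or NP. These groups are D-gel@NP, D-gel@GSNP and L-gel@GSNP. The fifth group, labelled non-SP, was a different population of the same line, grown with neither cocktail nor hydrogel. A difference between non-SP and any other group can therefore come from the population, the cocktail or the hydrogel, and these cannot be told apart. The composition of the cocktail and what GSNP and NP stand for are not given in the sources used here. Nothing in the labels says that the replicates were separate cultures, so p-values measure the spread between these libraries, which may be technical.

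Library totals ran from 16626413 counts (D-gel@NP replicate 1) to 98102794 (L-gel@GSNP replicate 3), and 17497 genes, all 4 members among them, had enough counts to be tested. The D-gel@GSNP libraries stood nearly as close to non-SP as replicates did: over log2 levels, they lay 79.1 to 86.9 from the non-SP libraries, which lay 79.9 to 81.9 from each other. They lay 125 to 137 from PBS, whose population and cocktail their label gives them. Only 73 genes (0.417% of those tested) passed the test between D-gel@GSNP and non-SP. Whether labels were exchanged was not tested. Results that rest on D-gel@GSNP are therefore given beside the same comparison with non-SP. Mitochondrially encoded genes took 5.97% ± 0.343 (SD, n = 3) of counts in PBS, 4.63% ± 0.191 in D-gel@NP, 4.5% ± 0.192 in L-gel@GSNP, 3% ± 0.316 in D-gel@GSNP and 2.86% ± 0.0552 in non-SP, and their part in the members' levels was not tested.

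The sequences before the start sites of the 4 genes are shown because the members fell into pairs with different patterns over the groups, and the pairs can be compared with the motifs in their promoters. Each line gives the 250 bases before the annotated start, 5′ to 3′ on the strand of the gene, as RefSeq lists them on build GRCm38.p6. Capitals mark matches to the AP-1 motif TGANTCA and to TATAAA. The positions are chr3:92485882-92486131 (minus strand) for Sprr1a, chr3:92438780-92439029 (minus strand) for Sprr1b, chr1:106934199-106934448 (plus strand) for Serpinb12 and chr5:86676299-86676548 (minus strand) for Tmprss11b.
Sprr1a: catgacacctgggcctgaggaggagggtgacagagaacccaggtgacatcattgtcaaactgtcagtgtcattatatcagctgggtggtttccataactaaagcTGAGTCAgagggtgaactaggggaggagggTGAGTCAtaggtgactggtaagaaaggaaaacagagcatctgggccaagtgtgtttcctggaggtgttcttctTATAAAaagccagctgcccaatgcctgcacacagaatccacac
Sprr1b: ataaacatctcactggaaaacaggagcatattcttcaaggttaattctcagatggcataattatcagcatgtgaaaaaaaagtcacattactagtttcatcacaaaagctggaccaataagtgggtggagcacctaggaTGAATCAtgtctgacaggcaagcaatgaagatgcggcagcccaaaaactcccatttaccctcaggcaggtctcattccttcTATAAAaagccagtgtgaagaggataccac
Serpinb12: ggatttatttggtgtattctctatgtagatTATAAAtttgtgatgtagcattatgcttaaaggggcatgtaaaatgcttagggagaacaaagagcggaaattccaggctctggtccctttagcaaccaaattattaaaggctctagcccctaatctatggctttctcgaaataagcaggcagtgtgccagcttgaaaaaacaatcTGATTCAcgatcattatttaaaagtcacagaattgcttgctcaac
Tmprss11b: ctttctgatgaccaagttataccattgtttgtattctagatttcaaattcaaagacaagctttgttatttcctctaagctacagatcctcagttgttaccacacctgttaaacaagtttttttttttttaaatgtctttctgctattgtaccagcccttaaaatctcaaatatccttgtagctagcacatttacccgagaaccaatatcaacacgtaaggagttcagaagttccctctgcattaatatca

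AP-1 is the dimer of Jun, Fos and Atf family proteins. Its motif stood at 2 places before Sprr1a, both TGAGTCA, with first bases at -146 and -116 from the start. Sprr1b held 1 match, TGAATCA at -111, and the first of the 2 Serpinb12 windows held 1, TGATTCA at -45. Tmprss11b and the second Serpinb12 window held none. The motif therefore did not separate the Sprr1a and Sprr1b pair from the pair of Serpinb12 and Tmprss11b, and its part in their levels was not tested. Searched on both strands, 7.81% of 32851 promoter windows of 300 bases (250 before and 50 after the start) held at least 1 match and 0.46% held more than 1. A TATAAA match stood at -43 before Sprr1a and at -30 before Sprr1b, at -220 and -201 in the Serpinb12 windows and nowhere in that of Tmprss11b, and 13.6% of all windows held one. The STAT motif TTCNNNGAA was in none of the members' windows and in 8.3% of all windows. No match of these motifs overlapped another. A match describes letters in a window and is not a bound site.

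The number of counts assigned to a gene depends on how well its reads can be told from those of relatives. No stretch of 50 bases of a Sprr1a, Sprr1b or Serpinb12 transcript occurs in the transcript of another gene in the GENCODE vM21 set, so Sprr1a and Sprr1b share none with each other. Tmprss11b shares 7 of its 4122 such stretches (0.17%), and none of 100 bases. In the annotation of that build no gene overlaps any of the 4.

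Sprr1a, a substrate of the cornified envelope, was among the most abundant transcripts of these cells. Its levels in CPM (counts per 1000000 counts of the library, scaled with TMM factors) were 527, 510 and 589 in the PBS libraries, 323, 332 and 318 in non-SP, 364, 365 and 338 in D-gel@GSNP, 330, 346 and 346 in D-gel@NP, and 255, 242 and 213 in L-gel@GSNP. The PBS libraries were the highest of the 15 and the L-gel@GSNP libraries the lowest, and neither group overlapped any other. Among all genes its length-scaled level (FPKM) ranked 30 to 38 in the PBS libraries and 114 to 132 in L-gel@GSNP. PBS exceeded non-SP 1.67-fold, D-gel@GSNP 1.52-fold, D-gel@NP 1.59-fold and L-gel@GSNP 2.29-fold.

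Sprr1b encodes a close relative of Sprr1a and lies near it on chromosome 3, with Sprr3 between them. It measured 28.6, 27.9 and 24.1 CPM in PBS, 4.27, 5.25 and 5.04 in non-SP, 4.91, 6.07 and 4.82 in D-gel@GSNP, 1.91, 6.23 and 6.57 in D-gel@NP, and 2.18, 1.74 and 2.05 in L-gel@GSNP. PBS was again above all other libraries and L-gel@GSNP was low. The D-gel@NP group was split: replicate 1, the shallowest library, with 32 counts of Sprr1b, lay within the L-gel@GSNP range, while the other two lay above every non-SP library. PBS exceeded non-SP 5.54-fold, D-gel@GSNP 5.08-fold, D-gel@NP 5.13-fold and L-gel@GSNP 13.5-fold.

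The 2 envelope genes therefore both had their highest mean in PBS and their lowest in L-gel@GSNP, at very different levels. The means of D-gel@GSNP, D-gel@NP and non-SP lay between. No difference among these groups passed edgeR's test with TMM factors and all libraries for either gene, so their order is not read. Per length, Sprr1a had 18.8 to 25.2 times the FPKM of Sprr1b in the PBS libraries, 107 to 144 times in L-gel@GSNP, 62 to 76.3 times in D-gel@GSNP and 64.9 to 78.1 times in non-SP. In D-gel@NP the ratio was 54.2 to 178. Sprr1a made up 94.2% to 99.2% of the summed FPKM of the 4 members in every library.

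Serpinb12, a protease inhibitor of the clade B serpins, was close to absent in 2 groups. It measured 5.24, 5.28 and 5.59 CPM in PBS, 1.55, 1.14 and 1.62 in D-gel@NP, 0.849, 1.15 and 0.813 in L-gel@GSNP, 0.0958, 0.0512 and 0 in non-SP, and 0.0466, 0 and 0 in D-gel@GSNP. These levels came from 650 counts over the PBS libraries, 136 over D-gel@NP, 163 over L-gel@GSNP, 6 over non-SP and 2 over D-gel@GSNP. The PBS libraries, those of D-gel@NP and L-gel@GSNP together, and those of non-SP and D-gel@GSNP together formed 3 ranges that did not overlap. D-gel@NP and L-gel@GSNP overlapped narrowly, at 1.14 and 1.15 CPM. Scaled for depth, PBS exceeded non-SP 109-fold (95% interval 49.9 to 299), L-gel@GSNP 5.95-fold (5 to 7.11) and D-gel@NP 3.8-fold (3.15 to 4.6). These intervals cover counting error only. They are too narrow where both ends of a read pair were counted, and 62.3% to 66.4% of counts between 1 and 20 were even numbers in these libraries.

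Tmprss11b, the membrane-anchored protease, had the same order of groups at the top. It measured 14.7, 13.5 and 11 CPM in PBS, 2.33, 2.36 and 2.27 in D-gel@NP, 1.19, 0.924 and 1.82 in L-gel@GSNP, 0.233, 0.0749 and 0.184 in D-gel@GSNP, and 0.0958, 0.0512 and 0.339 in non-SP. Every PBS library was above every other, the D-gel@NP libraries were above the L-gel@GSNP libraries, and the D-gel@GSNP and non-SP libraries overlapped. PBS exceeded D-gel@NP 5.64-fold, L-gel@GSNP 9.57-fold, non-SP 78.6-fold and D-gel@GSNP 81.2-fold. Of the non-SP counts, 14 of 20 were in replicate 3.

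**Figure D1:**
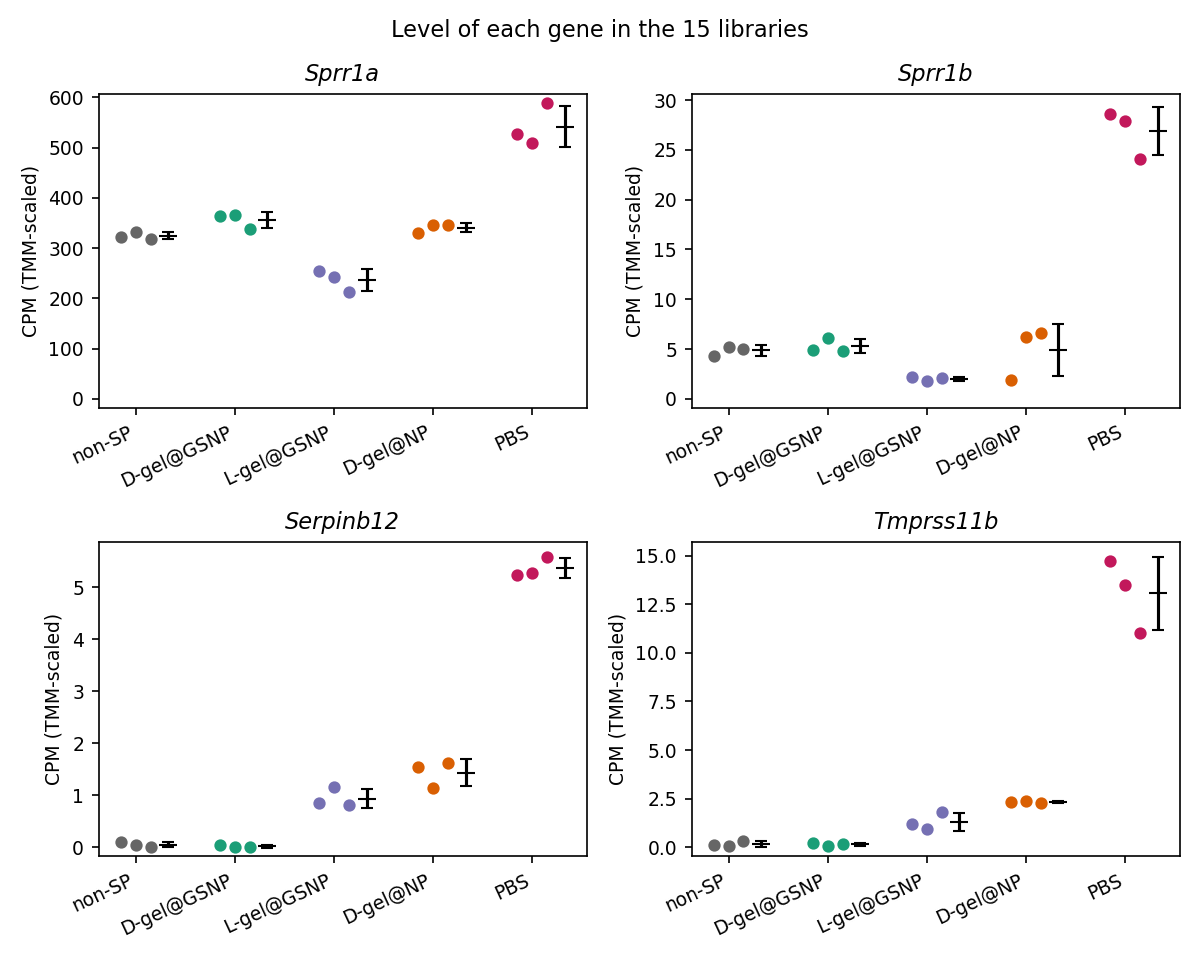
Each panel plots 1 gene, with TMM-scaled CPM on a linear vertical axis and the 5 groups along the horizontal axis; points are libraries and the black mark beside them is the mean with its SD (n = 3). PBS libraries lie above the other 12 in all 4 panels, L-gel@GSNP is lowest for Sprr1a (213 to 255 CPM), and Serpinb12 and Tmprss11b are near 0 in non-SP and D-gel@GSNP.

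Over all genes tested, 1171 (6.69%) had every PBS library above all 12 others, the pattern for which the members were chosen. The share of all genes that passed the test against PBS was 53.7% for non-SP, 55% for D-gel@GSNP, 45.6% for L-gel@GSNP and 30.4% for D-gel@NP. Groups that did not overlap with PBS were found for 61.2%, 61%, 52.4% and 39.8% of all genes in the same order, and nothing is read from the members' counts beside these. In bulk RNA, more cells of a kind that expresses a gene and more RNA per cell cannot be told apart.

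The comparisons that leave PBS out separated the 4 genes into 2 pairs. Between L-gel@GSNP and D-gel@GSNP, which by their labels differ in the form of the gel and carry the same load, Sprr1a and Sprr1b were lower in L-gel@GSNP while Serpinb12 and Tmprss11b were higher. All 4 passed edgeR's quasi-likelihood test with Benjamini-Hochberg adjustment at 0.05, as did 61.8% of all genes tested (31.3% higher and 30.5% lower), so passing it was common. None of the 4 had overlapping libraries, as for 67.3% of all genes. Sprr1a was 1.5-fold lower (log2 difference -0.59, SE 0.06, adjusted p = 1.93e-08), with 237 ± 22 CPM in L-gel@GSNP against 356 ± 15.3 (SD, n = 3). Sprr1b was 2.65-fold lower (log2 difference -1.41, SE 0.23, adjusted p = 1.72e-05). Tmprss11b was 8.48-fold higher (log2 difference 3.08, SE 0.38, adjusted p = 3.18e-07). In edgeR's fit Serpinb12 was 54.2-fold higher (log2 difference 5.76, 95% interval 4.56 to 6.97, adjusted p = 1.18e-08). It had 163 counts against 2, which after scaling for depth is a ratio of 63.1 (17.2 to 526 at 95%, for counting error alone). Both of those 2 counts were in D-gel@GSNP replicate 1, and without that library the log2 difference was 8.36 in place of 5.76.

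The same split stood when non-SP took the place of D-gel@GSNP. In L-gel@GSNP Sprr1a was 1.37-fold lower than in non-SP (log2 difference -0.46, adjusted p = 1e-06) and Sprr1b 2.43-fold lower (-1.28, adjusted p = 6.72e-05). Serpinb12 was 17.9-fold higher (log2 difference 4.16, 95% interval 3.15 to 5.18, adjusted p = 1.35e-07) and Tmprss11b 8.21-fold higher (3.04, interval 2.22 to 3.86, adjusted p = 6.11e-07). Of all genes, 59.8% passed, 30.6% higher and 29.2% lower. The libraries of the 2 groups did not overlap for any of the 4 members, as for 66.6% of all genes. Without non-SP replicate 3, which held most of the non-SP counts of Tmprss11b, its log2 difference was 4.15. Without non-SP replicate 1 that of Serpinb12 was 5.07.

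In D-gel@NP the second pair passed and the first did not. Against D-gel@GSNP, which by its label has the same gel and the other load, Tmprss11b was 14.4-fold higher (log2 difference 3.85, adjusted p = 1.07e-08). Serpinb12 was 83.2-fold higher in edgeR's fit (log2 difference 6.38, 95% interval 5.21 to 7.55, adjusted p = 1.87e-09). The ratio of its summed counts after scaling for depth was 98.8 (26.8 to 824 at 95%, for counting error alone). Without D-gel@GSNP replicate 1 its log2 difference was 8.98 in place of 6.38. Sprr1a differed by -0.06 (95% interval -0.19 to 0.07, adjusted p = 0.408) and Sprr1b by -0.01 (-0.48 to 0.45, adjusted p = 0.962), neither of which passed. Of all genes 58.4% passed, 29.6% higher and 28.8% lower.

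Against non-SP, D-gel@NP was 27.5-fold higher for Serpinb12 (log2 difference 4.78, adjusted p = 1.54e-08) and 13.9-fold higher for Tmprss11b (3.80, adjusted p = 2.04e-08), where 56.1% of all genes passed, 29.1% of all genes being higher in D-gel@NP. The libraries of the 2 groups did not overlap for either gene, as for 62.1% of all genes. Without non-SP replicate 1, which held 0.0958 CPM of Serpinb12, its log2 difference was 5.68, and without non-SP replicate 3 that of Tmprss11b was 4.91. Sprr1a differed by 0.07 (95% interval -0.05 to 0.20, adjusted p = 0.332) and Sprr1b by 0.11 (-0.36 to 0.58, adjusted p = 0.705). The Sprr1b value rested on 1 library. Without D-gel@NP replicate 1 it was 0.42 with an adjusted p of 0.0145 against non-SP and 0.29 with an adjusted p of 0.0742 against D-gel@GSNP, which did not pass.

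Setting L-gel@GSNP against D-gel@NP changes both gel and load. The first pair differed here: Sprr1a was 1.44-fold lower in L-gel@GSNP (log2 difference -0.53, adjusted p = 2.83e-06) and Sprr1b 2.63-fold lower (-1.39, adjusted p = 0.000247), where 19.5% of all genes passed. The Sprr1b libraries overlapped: D-gel@NP replicate 1, at 1.91 CPM, lay within the L-gel@GSNP range of 1.74 to 2.18 CPM. Serpinb12 differed by -0.62 (95% interval -1.24 to 0.01, adjusted p = 0.171). Tmprss11b differed by -0.76 (-1.33 to -0.19) with an adjusted p of 0.0542, just outside the threshold, although its libraries did not overlap, as for 31.9% of all genes. Its adjusted p ran from 0.00992 to 0.195 over 16 other settings, and without L-gel@GSNP replicate 3 the log2 difference was -1.14 and passed.

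Between D-gel@GSNP and non-SP no member passed edgeR's test, where 0.417% of all genes did. In DESeq2 and the other settings run the lowest adjusted p of any member was 0.14, and 1 of the 4, Sprr1a, had an interval before adjustment that left out 0. Sprr1a was 0.13 higher on the log2 scale in D-gel@GSNP (95% interval 0.01 to 0.26 before adjustment, adjusted p = 0.523), and its libraries, 338 to 365 CPM against 318 to 332, did not overlap, as for 20.4% of all genes. Sprr1b differed by 0.12 (-0.33 to 0.58, adjusted p = 0.909) and Tmprss11b by -0.05 (-1.22 to 1.13, adjusted p = 0.992). Serpinb12 differed by -1.6 in edgeR's fit (-3.72 to 0.52, adjusted p = 0.683). Non-SP had 6 counts of it and D-gel@GSNP 2, a ratio of 3.44 (95% interval 0.615 to 34.8, for counting error alone), which this depth cannot tell from no difference.

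**Figure D2:**
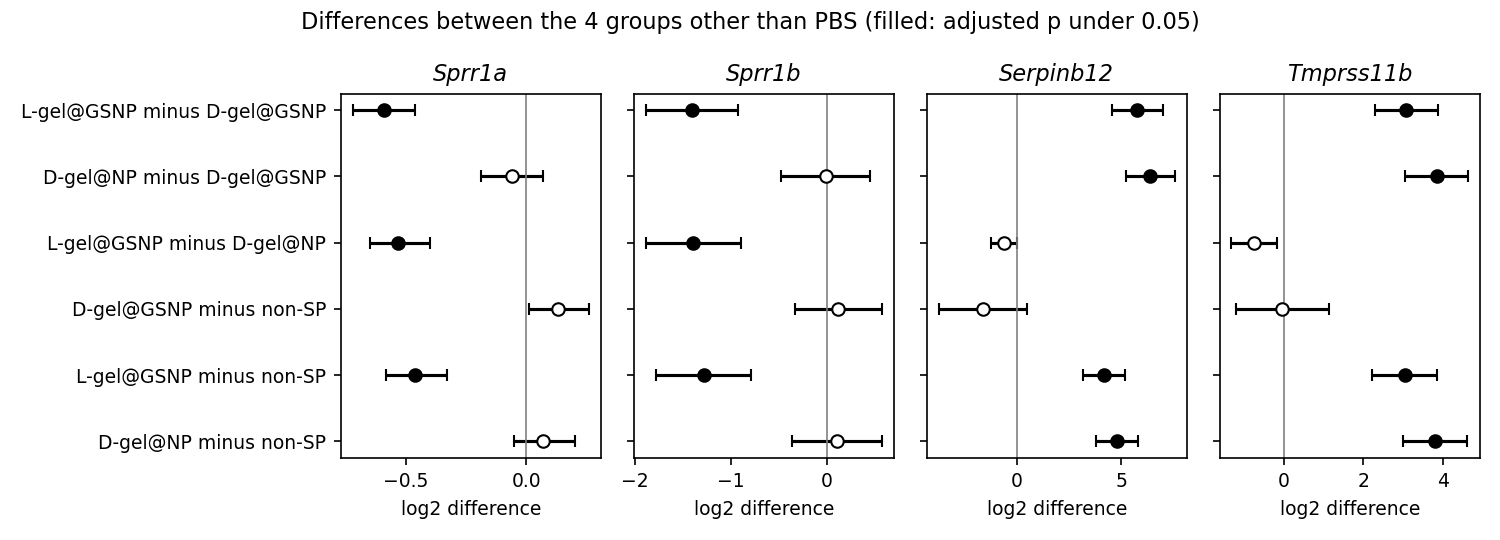
Each panel shows 1 gene, with the log2 difference and its 95% interval on the horizontal axis (scales differ between panels) and the 6 comparisons without PBS as rows; filled points passed the test. Sprr1a and Sprr1b are filled only in the 3 rows that hold L-gel@GSNP, all below 0 as coded, and Serpinb12 and Tmprss11b in the 4 rows that set L-gel@GSNP or D-gel@NP against D-gel@GSNP or non-SP, all above 0.

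Over the 15 libraries the log2 levels of Sprr1a and Sprr1b had a Pearson r of 0.93 (Spearman's rho 0.85) and those of Serpinb12 and Tmprss11b one of 0.92 (rho 0.86). The other 4 pairings had r between 0.33 and 0.51. The points are the same libraries in 5 groups with PBS at the top by the choice of genes, so these values describe the pattern and carry no p.

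**Figure D3:**
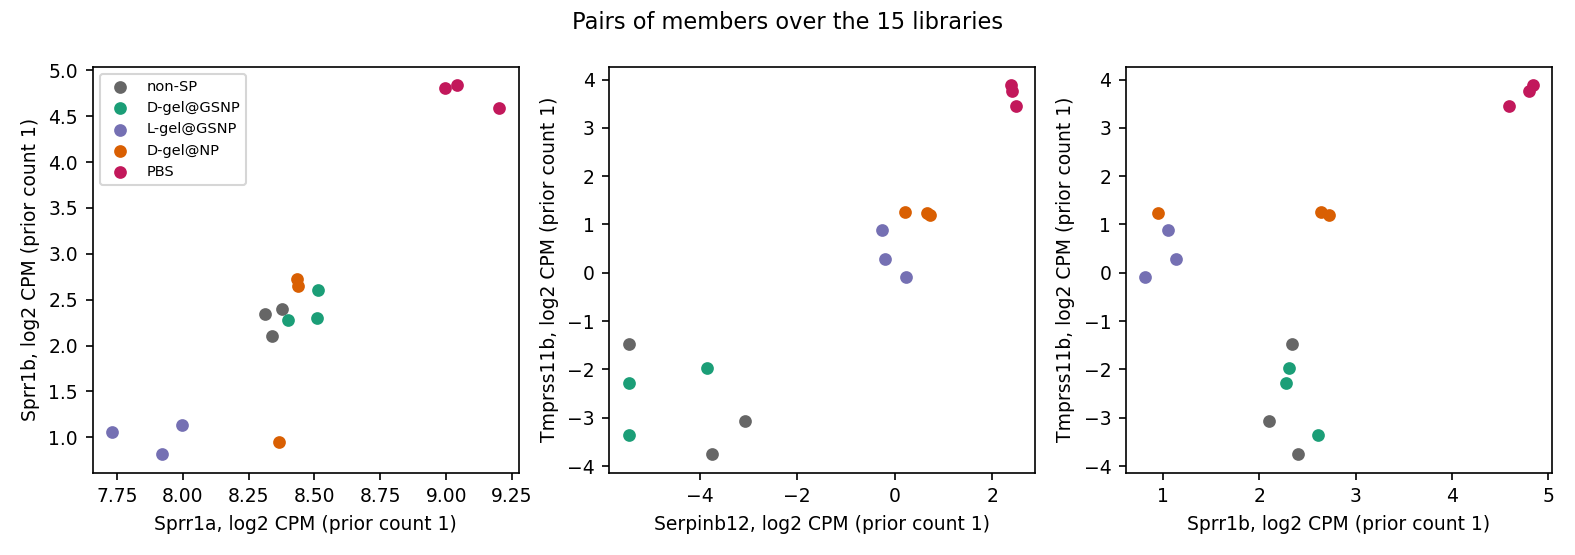
Each panel sets the log2 CPM (prior count 1) of 2 members against each other, a point for each of the 15 libraries, coloured by group. Sprr1a and Sprr1b climb together with 1 D-gel@NP library low for Sprr1b, Serpinb12 and Tmprss11b climb together, and in the third panel Sprr1b and Tmprss11b put L-gel@GSNP on the low side of one axis and in the middle of the other.

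Related genes were taken from 8 lists of the cornified envelope, serpins, proteases, squamous differentiation, S100 genes and nerve injury genes. They hold 175 genes of the table besides the members, and 99 of these had enough counts to be tested. Against non-SP, 56 were higher in PBS (56.6%) and 13 lower (13.1%), beside 27.6% and 26.1% of all genes. The median log2 difference of the 99 was 0.76, against 0.02 over all genes. Against D-gel@GSNP, 60 were higher and 13 lower, where 27.5% and 27.4% of all genes were. Against L-gel@GSNP, 28 were higher and 18 lower (24.1% and 21.5% of all genes), and against D-gel@NP, 27 and 17 (16.3% and 14.2%). The balance over all genes in the last 2 comparisons depended on the scaling: 4218 were higher and 3761 lower against L-gel@GSNP, but 3421 and 4560 with upper-quartile factors, and 2848 were higher and 2479 lower against D-gel@NP, but 2221 and 2974 with those factors. The related genes were then 28 higher and 24 lower against L-gel@GSNP and 25 and 19 against D-gel@NP. Related genes that had every PBS library above all others numbered 21 of 99 (21.2%), against 6.69% of all genes. The remaining 76 genes were too low to test, so these shares hold for the measured ones. The lists were chosen with earlier results of these data known, and the members for being highest in PBS. The shares are therefore a description of the lists and carry no test.

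Of the cornified envelope list 11 of 39 genes were tested, and 9 were higher and 1 lower in PBS than in non-SP, with a median log2 difference of 1.05. Ivl, which encodes involucrin, an early envelope scaffold, rose from 0.554 ± 0.188 CPM in non-SP to 4.08 ± 0.344 in PBS (7.32-fold, adjusted p = 1.62e-09). It stood at 1.73 ± 0.31 in L-gel@GSNP and 2.82 ± 0.261 in D-gel@NP. Sbsn, encoding the secreted epidermal protein suprabasin, rose 2.37-fold to 68.3 ± 2.61 CPM, and Dmkn, which encodes dermokine, 1.93-fold to 128 ± 6.19. Sprr2g, another small proline-rich gene, rose 2.68-fold to 9.09 ± 1.41 CPM. Its lowest mean, as for the Sprr1 pair, was that of L-gel@GSNP (2.67 ± 0.403 CPM, against 3.39 ± 0.474 in non-SP). In edgeR's test L-gel@GSNP passed against D-gel@GSNP (log2 difference -0.49, adjusted p = 0.0225) but not against non-SP (-0.35, adjusted p = 0.103). In the same test Sprr2g was higher in D-gel@NP than in non-SP, at 6.39 ± 1.07 CPM (0.89, adjusted p = 0.000192). The Sprr1 pair did not pass there with all libraries, but Sprr1b did without D-gel@NP replicate 1, as given above. The gene of this list that was lower in PBS than in non-SP, named after its value was seen, was Tgm1. It encodes the transglutaminase that cross-links the envelope (log2 difference -0.64, adjusted p = 0.00827).

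Clade B serpins had 18 of 25 genes tested, 10 of them higher and 3 lower in PBS than in non-SP. Serpinb5, which encodes maspin, rose 2.64-fold from 30.5 ± 1.78 to 80.6 ± 5.83 CPM. Serpinb6c rose 3.97-fold, Serpinb8 2.03-fold and Serpinb11 2.00-fold. Over the hydrogel groups they differed among themselves: Serpinb11 measured 106 ± 7.66 CPM in L-gel@GSNP and 118 ± 13.9 in D-gel@NP, near its 120 ± 9.92 in PBS, while Serpinb8 measured 27.9 ± 2.39 and 42.3 ± 1.79 against 77.6 ± 8.47. The 3 lower serpins, named after their values were seen, were Serpinb1c, Serpinb6b and Serpinb9.

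Of the type II transmembrane serine proteases 11 of 18 were tested, and 5 were higher in PBS than in non-SP while 6 did not pass. Tmprss2, an epithelial protease, rose 2.25-fold to 253 ± 10.3 CPM and measured 236 ± 9.95 in L-gel@GSNP, which did not pass against PBS (log2 difference 0.10, adjusted p = 0.0858). Tmprss11a, a neighbour of Tmprss11b in its gene cluster, rose 2.80-fold to 2.05 ± 0.21 CPM. Tmprss7 rose 7.95-fold to 1.26 ± 0.0795 CPM and stayed low in L-gel@GSNP at 0.196 ± 0.0532. Tmprss11f rose 1.32-fold to 23.1 ± 0.99 CPM and was highest in L-gel@GSNP at 31.3 ± 1.27.

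Epithelial kallikreins, prostasin and their inhibitors had 11 of 17 genes tested, 8 of them higher in PBS than in non-SP and 3 not passing, with a median log2 difference of 1.71. These proteases shed cells and process surface proteins in squamous epithelium. Klk10 rose 3.12-fold to 13.5 ± 1.02 CPM, and Klk14 9.12-fold to 1.51 ± 0.483 CPM. The inhibitors Spint2 and Slpi rose 1.33-fold and 1.43-fold. Against L-gel@GSNP 1 gene, Spink5, was higher in PBS and 4, Klk6, Klk11, Klk13 and Klk14, were lower, while 6 did not pass. Of all genes, 24.1% were higher and 21.5% lower there. Klk14 measured 5.19 ± 0.806 CPM in L-gel@GSNP.

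Keratins and desmosome genes were split, with 5 of 18 tested genes higher and 4 lower in PBS than in non-SP. Perp, a desmosome-associated p53 and p63 target, rose 2.5-fold to 306 ± 25.2 CPM, and Krt6a, a keratin of stressed and wounded epidermis, 4.35-fold to 3.54 ± 0.679 CPM. The desmosomal cadherins Dsg2 and Dsc2 rose 1.48-fold and 1.52-fold. The 4 lower genes, named after their values were seen, were the basal keratins Krt5 (log2 difference -1.37, adjusted p = 1.03e-05) and Krt14 (-0.46, adjusted p = 1.38e-05), desmoplakin (Dsp) and plakophilin (Pkp3).

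Transcription factors of squamous epithelium had 9 of 15 tested genes higher and 4 lower in PBS than in non-SP. Klf4, a factor of barrier formation, rose 1.5-fold to 269 ± 18.1 CPM. Ehf, an epithelial ETS factor, rose 1.35-fold to 188 ± 11.9 CPM, and Maf 1.45-fold to 95.8 ± 8.1. Those lower, named after their values were seen, included Grhl1, Grhl2 and Klf5. Against D-gel@GSNP 8 were higher and 4 lower. Against L-gel@GSNP none was higher and 3 (Grhl2, Klf5 and Prdm1) were lower, beside 24.1% and 21.5% of all genes. Against D-gel@NP none was higher and 4 (among them Klf5, Prdm1 and Maf) were lower, beside 16.3% and 14.2% of all genes. Maf measured 91.2 ± 4.48 CPM in L-gel@GSNP and 123 ± 15.2 in D-gel@NP.

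The S100 genes, calcium-binding proteins several of which lie near the Sprr genes, had 8 of 11 tested genes higher in PBS than in non-SP and 3 that did not pass. S100a1 rose 2.75-fold to 115 ± 17.6 CPM, S100a13 3.08-fold to 45 ± 7.65 and S100a11 1.37-fold to 732 ± 14.5. These 3 were also above L-gel@GSNP and D-gel@NP, with adjusted p of at most 1.37e-08. S100a7a rose 6.17-fold to 3.97 ± 0.711 CPM and measured 5.31 ± 1.31 in L-gel@GSNP and 6.27 ± 1.81 in D-gel@NP. The list of nerve injury genes, set beside Sprr1a, had only 4 tested genes, 2 higher and 1, Csrp3, lower: the AP-1 family genes Atf3 (4.22-fold, adjusted p = 3.77e-13) and Jun (1.41-fold, adjusted p = 0.00909) rose. Atf3 measured 77.7 ± 7.96 CPM in D-gel@NP, above its 52.5 ± 1.84 in PBS.

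**Figure D4:**
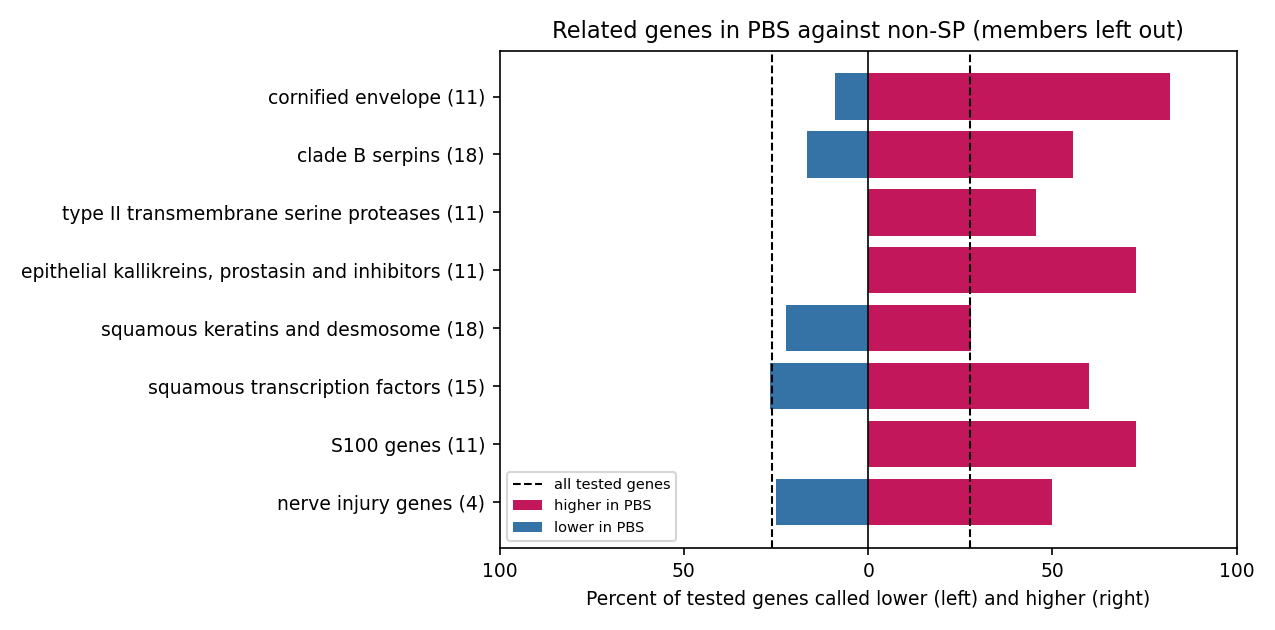
Bars give the percent of tested genes of each list that were higher (right) or lower (left) in PBS than in non-SP, with the number tested in brackets and the members left out; dashed lines mark all genes, 27.6% higher and 26.1% lower. Keratins and desmosome genes lie at the dashed line on the right, and the other 7 lists extend past it.

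**Figure D5:**
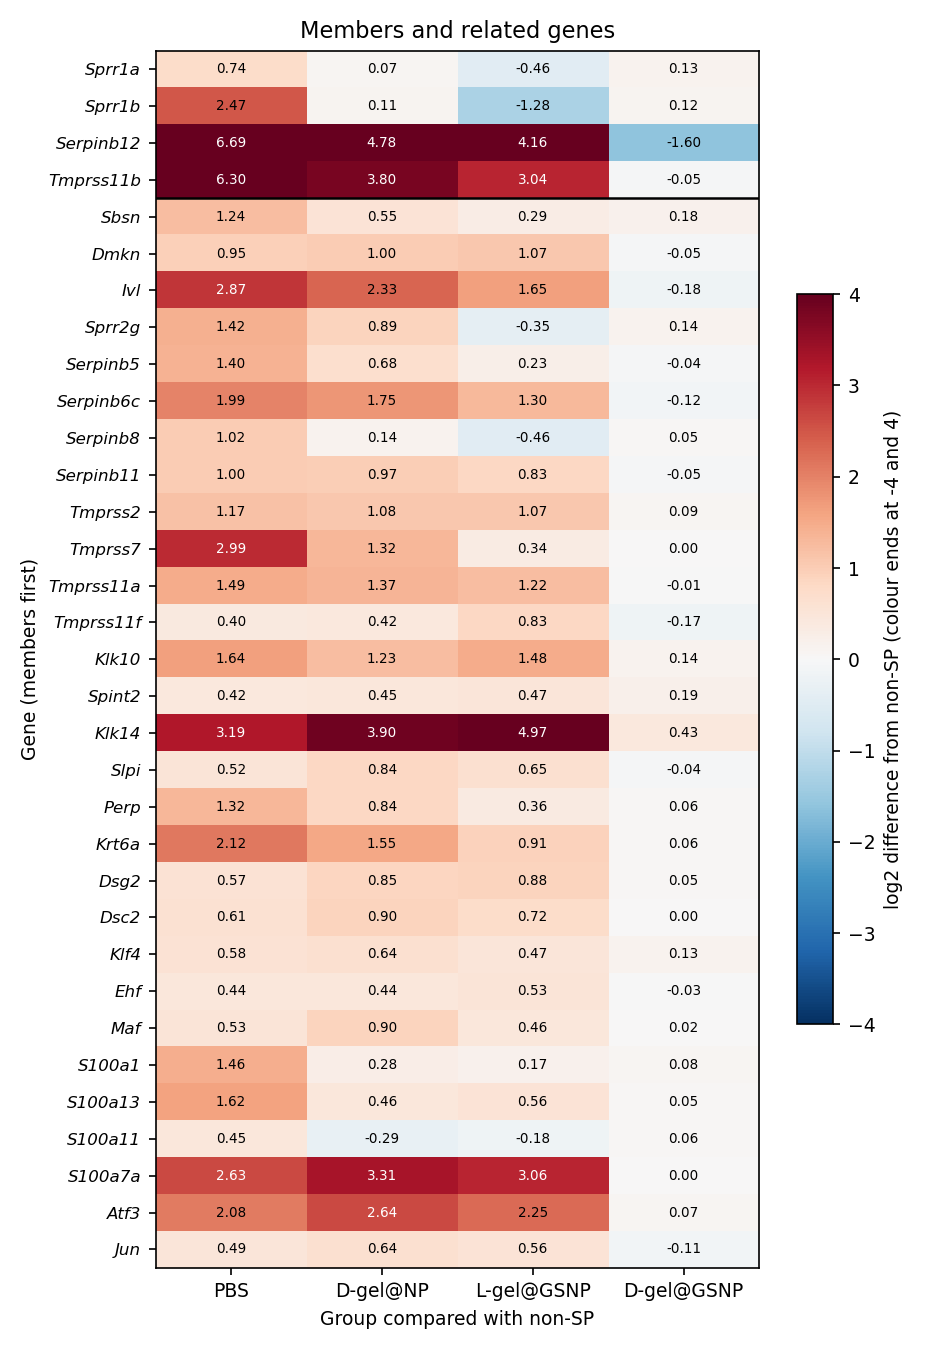
Cells give the log2 difference of each group from non-SP for the 4 members, above the line, and for 29 related genes; red is higher and colours end at -4 and 4. The D-gel@GSNP column lies between -0.18 and 0.43 except for Serpinb12, whose -1.60 compares 2 counts with 6, and Sprr1a, Sprr1b, Sprr2g, Serpinb8 and S100a11 are below 0 in L-gel@GSNP while most others are above it.

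Genome neighbours were described from the 5 annotated protein-coding genes on each side of each member. Around the Sprr1 pair, Sprr4 had 2 counts in all, both of them in non-SP, Sprr3 and Sprr2i were too low to test, and Ivl was the only other neighbour to reach 0.5 CPM in a group. Around Serpinb12, the adjacent Serpinb5 is the gene given above, and Serpinb13 had counts only in PBS (4). Serpinb3d had 25 counts over the PBS libraries. Vps4b, a sorting ATPase gene beyond Serpinb5, measured 176 ± 4.33 CPM in non-SP and 192 ± 3.25 in PBS, and the apoptosis regulator Bcl2 fell from 18.5 ± 0.68 to 10.6 ± 1.11 (adjusted p = 7.97e-07). Kdsr, an enzyme of sphingolipid synthesis, rose to 83.2 ± 4.21 from 45.7 ± 0.724, and the phosphatase gene Phlpp1 fell to 39.2 ± 2.64 from 52.7 ± 3.01.

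Around Tmprss11b, Tmprss11e had 5 counts, all in L-gel@GSNP, and Ythdc1, a reader of methylated RNA at the edge of the cluster, measured 106 ± 1.15 CPM in non-SP and 111 ± 3 in PBS (adjusted p = 0.248). The glucuronosyltransferase gene Ugt2b34 rose from 138 ± 3.59 to 291 ± 33.9 CPM and Ugt2b35 from 8.45 ± 0.64 to 23.4 ± 3.74, and Ugt2b1 measured 4.71 ± 0.918 and 7.33 ± 0.439 (adjusted p = 0.00199).

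The genes whose log2 levels were most like the mean of the 4 members over the 15 libraries, out of 11597 candidates, included Mettl7a1, Atp6ap1, Tmx2, Anxa8, Acly, Selenop, Klb, Slc23a2 and Suox, with r from 0.985 down to 0.973. Anxa8, which encodes an annexin, measured 25.4 ± 2.36 CPM in non-SP and 148 ± 17 in PBS, and Klb, a co-receptor for fibroblast growth factors, 0.665 ± 0.199 and 5.26 ± 0.703. Nearest to single members were Cyb5a, Selenos and Smcr8 for Sprr1a, Rdh11, Odf2l and Ctnnal1 for Sprr1b, Cyp3a13, Ivl and Oma1 for Serpinb12, and Slc38a1, Emp1 and Cryab for Tmprss11b. Those of Sprr1a and Sprr1b were lowest in L-gel@GSNP, as the pair was, for example Cyb5a with 44.3 ± 1.49 CPM there, 56.3 ± 0.43 in non-SP and 80 ± 0.378 in PBS. Those of the other pair were between the extremes in that group, for example the epithelial membrane protein gene Emp1 with 856 ± 31.1 CPM, between 521 ± 1.4 in non-SP and 1250 ± 48 in PBS. These likenesses were picked as the highest of many and carry no test.

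Markers of squamous epithelium did not follow the members when summed, and they differed among themselves. Their summed level, from 11 genes, was 71.1 to 89 CPM in PBS, 103 to 110 in non-SP, 103 to 112 in D-gel@GSNP, 54 to 58.5 in L-gel@GSNP and 58.6 to 65.8 in D-gel@NP. Most of it was Krt14, at 96.7 CPM in non-SP and 70.1 CPM in PBS, so the sum speaks mainly for that gene. Krt5 also fell, from 4.5 to 1.73 CPM, while Ivl, in this list too, rose from 0.554 to 4.08. Krt10 measured 3.55 and 3.62 CPM. In PBS 6 of the 11 were under 0.5 CPM, among them Krt1, Krt4, Krt13 and Flg. Trp63, the master factor of squamous epithelium, was low at 0.93 ± 0.305 CPM in PBS and 0.199 ± 0.135 in non-SP (adjusted p = 0.000159). The word squamous is therefore used here for where the 4 genes are known to be expressed and not for the cells. Simple epithelium markers, 8 genes, summed to 2588 to 2833 CPM in PBS, 2635 to 2772 in L-gel@GSNP and 2445 to 2632 in D-gel@NP. Their sum was 2219 to 2391 CPM in D-gel@GSNP and 2200 to 2215 in non-SP. Krt18 was at 995 to 1099 CPM by group, while Krt19 measured 95.3 in non-SP and 198 in PBS, and Krt8 717 and 974. Epcam, Krt7 and Cldn4 were also higher in PBS, Cdh1 measured 0.751 and 0.424 CPM, and Cldn7 had no counts in PBS.

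Macrophage and microglia markers, taken as a sum, were highest in PBS and lowest in non-SP and D-gel@GSNP, as were Serpinb12 and Tmprss11b, but the markers differed among themselves. The sum, from 11 genes, was 66.8 to 74.7 CPM in PBS, 38.6 to 45.3 in L-gel@GSNP, 33.1 to 40.9 in D-gel@NP, 12 to 13 in D-gel@GSNP and 11.1 to 11.3 in non-SP. It came mostly from Cd68 (42.4 CPM in PBS) and Csf1r (24.6 CPM), while Tyrobp was at 0 in PBS, L-gel@GSNP and non-SP, Ptprc was at 0.456 CPM in PBS, and 7 of the 11 were under 0.5 CPM there. Itgam was higher in L-gel@GSNP (3.92 CPM) than in PBS (1.79). P2ry12 measured 1.56 CPM in non-SP, 2.07 in PBS, 0.983 in L-gel@GSNP and 0.943 in D-gel@NP. Fcer1g was at 0.303 CPM in non-SP and 0.165 in PBS, and Tmem119 at 0.131 and 0.0497.

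The fibroblast markers, 5 genes, summed to 1241 to 1316 CPM in PBS, 1302 to 1461 in L-gel@GSNP, 1427 to 1491 in D-gel@NP, 656 to 677 in D-gel@GSNP and 661 to 689 in non-SP. Nearly all of it was Dcn, which encodes the matrix proteoglycan decorin. The collagen gene Col1a1 went the other way, with 13.4 ± 1.31 CPM in non-SP and 1.58 ± 1.45 in PBS (adjusted p = 2.8e-07), and Col1a2 had at most 8 counts in a group. The neuron markers, 5 genes, summed to 0.837 to 1.7 CPM in PBS, 8.38 to 11.8 in L-gel@GSNP, 4.51 to 4.59 in D-gel@NP, 0.466 to 0.781 in D-gel@GSNP and 0.719 to 1.07 in non-SP, and in the 2 higher groups most of it was Map2. Glial and glioma markers, 12 genes, summed to 2277 to 2414 CPM in PBS, 1855 to 2035 in L-gel@GSNP and 1842 to 1965 in D-gel@NP. The sum was 1490 to 1563 CPM in D-gel@GSNP and 1447 to 1473 in non-SP. Most of it was Vim, at 896 to 1120 CPM by group, and Cd44, at 523 to 1160. The others were split: Nes fell from 3.7 CPM in non-SP to 1.24 in PBS, while Pdgfra rose from 35 to 50.5. In L-gel@GSNP Pdgfra was at 14.4 CPM, and S100b at 1.08 against 0.175 in PBS. Gfap was at 0.28 CPM in PBS and Olig2 had 4 counts, in PBS only. Prom1, the gene of CD133 by which the cells of 4 groups are labelled, was too low to test. It measured 0.157 CPM in PBS (19 counts), 0.136 in L-gel@GSNP (35) and 0.107 in D-gel@NP (10). In D-gel@GSNP it was at 0.0584 CPM (8 counts) and in non-SP at 0.0161 (2). The part of other cell types in the members' levels was not tested beyond these values.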

How the data were processed

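RNA-seq of GL261 cells gave 15 libraries in 5 groups of 3, grouped by the labels' treatment. The deposited table holds counts per gene, and the authors also deposited FPKM per library. Per the submitters' processing notes, fastp 0.22.0, HISAT2 2.1.0, featureCounts, DESeq2 and build GRCm39 were used. For all 34259 genes the FPKM equalled the count divided by length and library total within 0.0001. Whether counting used strand or read pairs is not given in the sources used here. Gene names came from a GRCm38.p6 table, which matched 32434 IDs and left 1825 without a symbol.

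Counts were fitted with edgeR 4.0.16 in R 4.3.3 (quasi-likelihood test, TMM factors, filterByExpr by group, all 15 libraries in 1 fit), with Benjamini-Hochberg adjustment over the 17497 genes tested and a threshold of 0.05. CPM are TMM-scaled, and 95% intervals of log2 differences come from the fit. Ratios of summed counts have exact intervals. Replicates differed by more than sampling noise (chi-square per degree of freedom 3.74 to 32.8). The test was tried on simulated counts of genes that the filter had kept. Changes were set in L-gel@GSNP alone and in far fewer genes than passed in these data. The filter, and a setting where most genes differ, were therefore not checked. Alternatives tried were a filter of 1 CPM in 3 libraries or none, upper-quartile or RLE factors, DESeq2 1.42.0, fitting only the 6 libraries compared, a replicate block, limma 3.58.1 on log2(FPKM + 1) and log2(FPKM + 0.1), leaving out each library, and, chosen after seeing the data, a fit without the PBS libraries.

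The members and the lists were chosen with earlier results of these data known. Genes named besides the members were, in each list, up to 4 with the lowest adjusted p in PBS against non-SP that passed with groups not overlapping and at least 0.5 CPM in the higher group; the 10 most like the members' mean and 3 most like each member, with at least 1 CPM in a group; and neighbours at 0.5 CPM or more. Some genes that the rule names are not reported here. Genes outside this rule are marked where they appear or belong to the marker lists. A gene's promoter came from RefSeq (GRCm38.p6), which is not the build of the files, so no position of a gene body is given.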

Additional observations from a re-analysis of the deposited data

How the results depend on the processing

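Of 382 alternative values of the members' differences without PBS, 361 kept their direction and side of the threshold. None of the differences that passed lost its call. The mean levels, as percent of the PBS mean, moved by less than the SD of their group with RLE factors and with the deposited FPKM. No other alternative was compared for the levels. The counts of related genes higher or lower in PBS changed by at most 1.5-fold in every alternative run, and the fit without the PBS libraries changed no call. Differences near 0 turned. For D-gel@NP minus D-gel@GSNP, Sprr1a was 0.06 with upper-quartile factors, and Sprr1b was 0.11 with them, 0.01 with a filter of 1 CPM in 3 libraries and -0.23 to 0.29 on leaving out a library. For D-gel@NP minus non-SP, Sprr1b was -0.1 and -0.15 by limma on log2(FPKM + 1) and log2(FPKM + 0.1) and -0.11 to 0.42 on leaving out a library, and Sprr1a was 0.17 and passed with upper-quartile factors. For D-gel@GSNP minus non-SP, Tmprss11b was 0.02 by limma with 0.1 added and -0.45 to 1.06 on leaving out a library. In a fit of the 6 libraries of that comparison alone, Serpinb12 and Tmprss11b were too low to be tested. For L-gel@GSNP minus D-gel@NP, Tmprss11b passed at -0.74 without a filter, -0.77 by DESeq2, -0.24 and -0.69 by limma, and ranged from -1.14 to -0.57 on leaving out a library; Serpinb12 passed at -0.19 by limma with 1 added. The cause was not tested.

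The 73 genes that passed between D-gel@GSNP and non-SP became 239 without a filter, 195 by DESeq2, 282 in a fit of the 6 libraries, 25 and 36 by limma, and 6 to 140 on leaving out a library. Upper-quartile factors moved the median of all genes by 0.15 in L-gel@GSNP minus D-gel@GSNP, where 6778 genes were then higher and 4180 lower in place of 5475 and 5339, by 0.12 in D-gel@NP minus D-gel@GSNP (6303 and 3961 in place of 5183 and 5031), by 0.12 in L-gel@GSNP minus non-SP (6472 and 4106 in place of 5361 and 5107) and by 0.1 in D-gel@NP minus non-SP. Same-numbered libraries did not deviate together (correlations -0.04 to 0.04 over 30 pairs), so the numbers were not taken as pairs. With the replicate block, 34 genes passed between D-gel@GSNP and non-SP, and Tmprss11b in L-gel@GSNP minus D-gel@NP was -0.81 with an adjusted p of 0.0447 by edgeR. Depth limits Serpinb12 and Tmprss11b in non-SP and D-gel@GSNP, where 3 counts over a group are 0.0246 and 0.0215 CPM.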
